A study of Homo sapiens with 12 samples.

Results

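The genes described here are 10 genes of antigen presentation by MHC class II: HLA-DRA, HLA-DRB1, HLA-DRB5, HLA-DPA1, HLA-DPB1, HLA-DQA1, HLA-DQB1 and HLA-DMA on chromosome 6, CD74 on chromosome 5 and CIITA on chromosome 16. They were matched by symbol to 10 of the 58051 Ensembl genes counted, each on its primary chromosome, and were picked because the region moved in opposite directions in the erlotinib- and afatinib-resistant models of Cal27. Their changes in Cal27 are therefore a description with no test, while FaDu played no part in the choice and was tested. Poly(A) RNA was sequenced from FaDu, a line from a hypopharyngeal squamous cell carcinoma, and Cal27, a squamous cell carcinoma line of the tongue. Each line was represented by untreated parental cells, by an afatinib-resistant model (AfaR) and by an erlotinib-resistant model (ErlR), with 2 libraries per group and 12 in all. Afatinib and erlotinib are inhibitors of the EGFR kinase. Each resistant model is 1 population selected by stepwise dose escalation. Per the methods of the study, resistant stocks were kept under drug and cultured without it only shortly before experiments. A lasting change of that population and an effect of recent drug or of its removal cannot be told apart. The labels give all 12 libraries 1 batch date and an unmodified genotype. The labels and the methods call the libraries biological replicates, but nothing states what separated the replicate cultures. The p-values below thus measure only the spread between replicate libraries within groups, pooled over the groups fitted together.

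MHC class II molecules are pairs of an alpha and a beta chain that display peptides to CD4+ T cells, and their usual place is on B cells, dendritic cells and macrophages. HLA-DR, HLA-DP and HLA-DQ are the displaying pairs. CD74, the invariant chain, escorts new pairs through the cell and fills their groove, and HLA-DM then exchanges the remaining CD74 fragment for a peptide. CIITA is a coactivator without DNA binding of its own that docks on RFX, CREB and NF-Y at the X and Y boxes of these promoters. In epithelial cells CIITA is classically induced by interferon gamma, with IRF1 among the factors that act on its promoter.

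The X and Y boxes are shown for the members whose promoter held both, because they are the DNA feature by which these genes are known to be read together. RefSeq promoter windows on GRCh38.p14 (250 bases before to 50 bases after a start site) were at hand for 8 of the 10 members, with HLA-DRA and CIITA without an entry. The letters searched were AGNNACNGA for the X box, on the strand of the gene, followed after 10 to 40 bases by ATTGG or its reverse complement for the Y box. Only the 250 bases before the start site were searched. These letters were set after the class II promoters had been read, so their presence in the members is a description. Each line runs 5′ to 3′ on the strand of the gene, and the capitals mark first the X and then the Y match.
HLA-DRB1: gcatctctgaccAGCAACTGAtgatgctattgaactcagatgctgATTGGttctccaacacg
HLA-DRB5: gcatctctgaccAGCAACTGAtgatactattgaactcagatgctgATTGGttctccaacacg
HLA-DQA1: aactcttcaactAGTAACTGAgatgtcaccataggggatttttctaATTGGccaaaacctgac
HLA-DQB1: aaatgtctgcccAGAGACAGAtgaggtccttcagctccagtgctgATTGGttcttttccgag
HLA-DMA: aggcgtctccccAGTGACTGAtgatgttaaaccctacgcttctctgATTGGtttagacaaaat
The stretches lie at chr6:32589878-32589939 for HLA-DRB1, chr6:32530361-32530422 for HLA-DRB5, chr6:32666729-32666790 for HLA-DQB1 and chr6:32953160-32953222 for HLA-DMA, all on the minus strand, and at chr6:32637292-32637354 on the plus strand for HLA-DQA1. Between the X and the Y match lay 24 bases in HLA-DRB1, HLA-DRB5 and HLA-DQB1 and 25 bases in HLA-DQA1 and HLA-DMA. Of all 35116 promoter windows, 0.325% held an X match followed by a Y match in this way. By gene, it was 110 of 27305 genes with a window, and 5 of the 8 members with a window. Nothing is read from that contrast, since the letters were set on class II promoters. CD74 and HLA-DPB1 had a Y match alone and HLA-DPA1 an X match alone, which says only that the other letters are not in the bases searched. X and Y matches taken singly, here with the X letters on either strand, were common, in 12.339% and 32.008% of all windows.

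Levels are given as CPM, counts scaled to library size on 1 TMM scale over the 12 libraries, with replicate 1 before replicate 2. Each library held between 16334937 and 23399259 counts on genes, so that a single count was worth from 0.0411 to 0.0654 CPM. ERCC spike-ins accounted for 3.86% to 5.82% of the counts. Before any resistance, Cal27 carried more class II RNA than FaDu. The summed level of the 10 genes was 227 and 322 CPM in Cal27 parental cells against 14.9 and 9.46 CPM in FaDu parental cells, and CD74 alone made up 87.1% and 88.6% of the Cal27 sum. For 9 of the 10 genes both Cal27 parental libraries lay above both FaDu parental libraries, HLA-DQA1 being the exception. The share of all genes with that order was not computed, so nothing is read from this count. The mean level was 40.3 times as high in Cal27 for CD74, 14.8 times for HLA-DQB1, 8.51 times for CIITA and 6.46 times for HLA-DRA. These cross-line folds were not tested.

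In Cal27, the class II genes stood at their highest in AfaR, in between in parental cells and at their lowest in ErlR. All 10 genes were higher in both AfaR libraries than in both parental libraries, where 36.1% of the 15269 genes tested showed that order. All 10 were lower in both ErlR libraries than in both parental libraries, an order seen in 33.4% of all genes tested. The rule chose the members on these contrasts, so nothing is read from either count. Both comparisons share the parental libraries. The median log2 fold change of the members was 3.52 in AfaR, from 1.52 to 4.66, and -1.88 in ErlR, from -2.35 to -0.73, where the median over all genes tested was -0.00 and -0.03. Of all genes tested, 11.5% were called higher in AfaR and 9.92% were called lower in ErlR, where a called gene had a Benjamini-Hochberg adjusted p below 0.05 in edgeR's quasi-likelihood test and a log2 fold change beyond 1 in either direction. Filtering members on low counts removed none in Cal27.

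**Figure D1:**
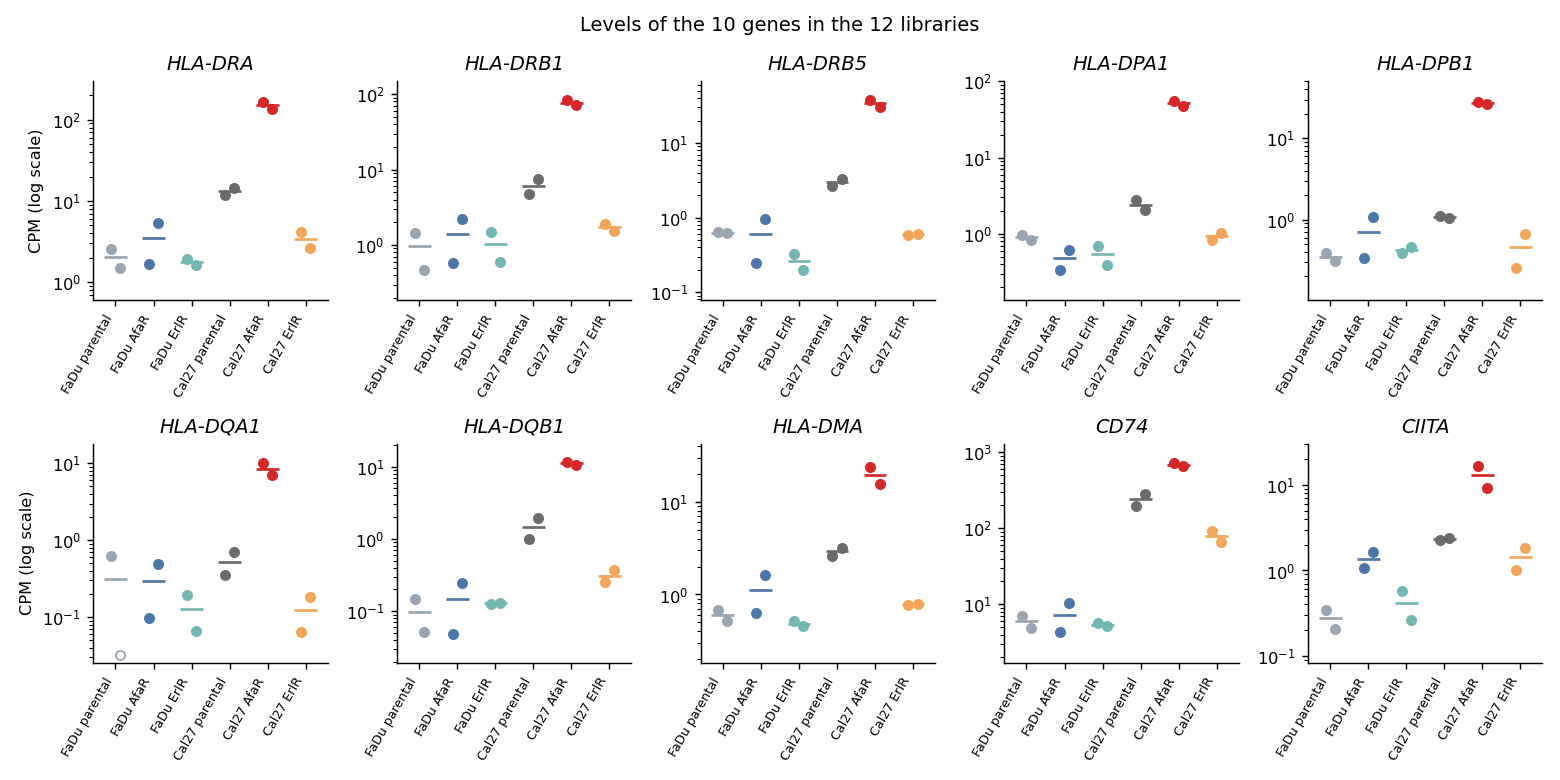
Level of each of the 10 genes in CPM (log scale) in the 12 libraries, by group. Points are libraries, bars are group means, and the open point at the bottom of the HLA-DQA1 panel is a library with 0 counts. Both Cal27 AfaR libraries lie above, and both Cal27 ErlR libraries below, the Cal27 parental libraries in every panel, while the FaDu groups lie low and mostly overlap.

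The HLA-DR genes encode the most abundant displaying pair. HLA-DRA, the alpha chain (ENSG00000204287, GRCh38 chr6:32439842-32445046, plus strand), stood at 11.7 and 14.6 CPM in Cal27 parental, at 167 and 137 CPM in AfaR and at 4.09 and 2.63 CPM in ErlR. This is 11.5 times the parental mean in AfaR (log2 fold change 3.53, SE 0.206) and a log2 fold change of -2.0 (SE 0.233) in ErlR. The groups lay far apart compared with the distance between replicates. HLA-DRB1, the main DR beta chain, was at 4.72 and 7.41 CPM in parental, at 82.8 and 71.7 CPM in AfaR and at 1.92 and 1.53 CPM in ErlR, with log2 fold changes of 3.67 and -1.84. HLA-DRB5, a second DR beta chain carried by some haplotypes, was at 2.68 and 3.33 CPM, then at 37.6 and 30.6 CPM in AfaR and at 0.575 and 0.611 CPM in ErlR, with log2 fold changes of 3.51 and -2.35. The reads of HLA-DRB1 and HLA-DRB5 may not be fully separable. Their transcripts, 1223 and 1250 bases long, are identical at 93.0% of 1179 aligned bases with a longest identical run of 98 bases, against reads of 150 nt. The HLA-DRB5 count was 0.568 and 0.449 times that of HLA-DRB1 in Cal27 parental cells, 0.455 and 0.427 times in AfaR and 0.300 and 0.400 times in ErlR. These ratios stayed in a narrow band while both genes ranged widely.

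By its estimated fold changes, HLA-DP had the largest rise of the displaying pairs in Cal27 AfaR. HLA-DPA1, the alpha chain, was at 2.74 and 2.04 CPM in parental, at 56.1 and 46.8 CPM in AfaR and at 0.831 and 1.04 CPM in ErlR. HLA-DPB1, the beta chain, was at 1.11 and 1.05 CPM in parental, at 28.1 and 26.6 CPM in AfaR and at 0.256 and 0.672 CPM in ErlR. The rise in AfaR was 21.5-fold for HLA-DPA1 (log2 fold change 4.43, SE 0.223) and 25.2-fold for HLA-DPB1 (4.66, SE 0.300), the highest value among the members. In ErlR the log2 fold changes were -1.37 (SE 0.293) and -1.22 (SE 0.427). HLA-DPB1 rested on 4 and 11 counts in ErlR, and its log2 fold change was -0.69 without ErlR replicate 1 and -2.04 without ErlR replicate 2. The 2 genes lie head to head and share 96 exonic bases on opposite strands. No source used here gives the strand setting of the counting.

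HLA-DQ had the fewest counts of the displaying pairs. HLA-DQA1, the alpha chain, was at 0.350 and 0.700 CPM in Cal27 parental, at 9.99 and 6.96 CPM in AfaR and at 0.0639 and 0.183 CPM in ErlR, where it had 1 and 3 counts. Its log2 fold change was 4.00 (SE 0.445) in AfaR and -2.03 (SE 0.733) in ErlR. The AfaR value was 4.58 without parental replicate 2. The ErlR value was -1.44 without parental replicate 2, -1.50 without ErlR replicate 1 and -2.90 without ErlR replicate 2. HLA-DQB1, the beta chain, was at 0.990 and 1.93 CPM in parental, at 11.6 and 10.7 CPM in AfaR and at 0.256 and 0.367 CPM in ErlR, with log2 fold changes of 2.93 and -2.22. Without parental replicate 2 the AfaR value of HLA-DQB1 was 3.48. The HLA-DQB1 count was 2.83 and 2.75 times that of HLA-DQA1 in parental cells and 1.16 and 1.53 times in AfaR, so the chains did not rise in step. The parental ratios rest on 6 and 12 counts of HLA-DQA1. HLA-DMA, one chain of the peptide exchanger, was at 2.62 and 3.21 CPM in parental, at 23.7 and 15.8 CPM in AfaR and at 0.767 and 0.794 CPM in ErlR. Its log2 fold changes were 2.76 (SE 0.281) and -1.92 (SE 0.355).

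In Cal27, CD74 had the highest level per length of the 10 genes and the smallest rise. It was at 198 and 285 CPM in Cal27 parental, at 722 and 659 CPM in AfaR and at 93.5 and 66.5 CPM in ErlR. The change was 2.86-fold upward in AfaR (log2 fold change 1.52, SE 0.211) and -1.62 on the log2 scale in ErlR (SE 0.213). Within a library, the CD74 count was 16.9 and 19.5 times that of HLA-DRA in Cal27 parental cells, 4.33 and 4.80 times in AfaR and 22.9 and 25.3 times in ErlR. The AfaR ratios lay below all other Cal27 ratios and came nearer to those of FaDu, which ran from 1.95 to 3.28. Gene lengths are the same in every library, so these ratios are compared between groups and not read as relative levels. Per kilobase of exonic sequence in AfaR, CD74 stood at 217 ± 13.9 CPM (SD, n = 2), HLA-DRA at 119 ± 16.2, HLA-DRB1 at 59.2 ± 5.99 and HLA-DRB5 at 27.1 ± 3.92, each apart from the next beyond the spread of the 2 libraries. HLA-DPB1 (9.80 ± 0.393 CPM per kilobase), HLA-DPA1 (8.95 ± 1.13) and HLA-DMA (7.78 ± 2.19) followed and could not be ordered beyond that spread. HLA-DQB1 (2.27 ± 0.126), HLA-DQA1 (1.22 ± 0.309) and CIITA (0.903 ± 0.377) came last, of which the latter pair overlapped. These lengths take in every annotated exon, and CIITA with 14503 bases is divided by the greatest of them.

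CIITA, the coactivator, had the smallest fall of the 10 genes in Cal27 ErlR. It was at 2.27 and 2.39 CPM in Cal27 parental, at 17.0 and 9.23 CPM in AfaR and at 1.02 and 1.83 CPM in ErlR. Its log2 fold change was 2.49 (SE 0.373) in AfaR and -0.73 (SE 0.423) in ErlR, the latter on 16 and 30 counts against 39 and 41. The replicates of each resistant model differed more for CIITA than for HLA-DRA, yet all 4 stayed on their own side of the parental values. CIITA shares 669 exonic bases with DEXI on the opposite strand.

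**Figure D2:**
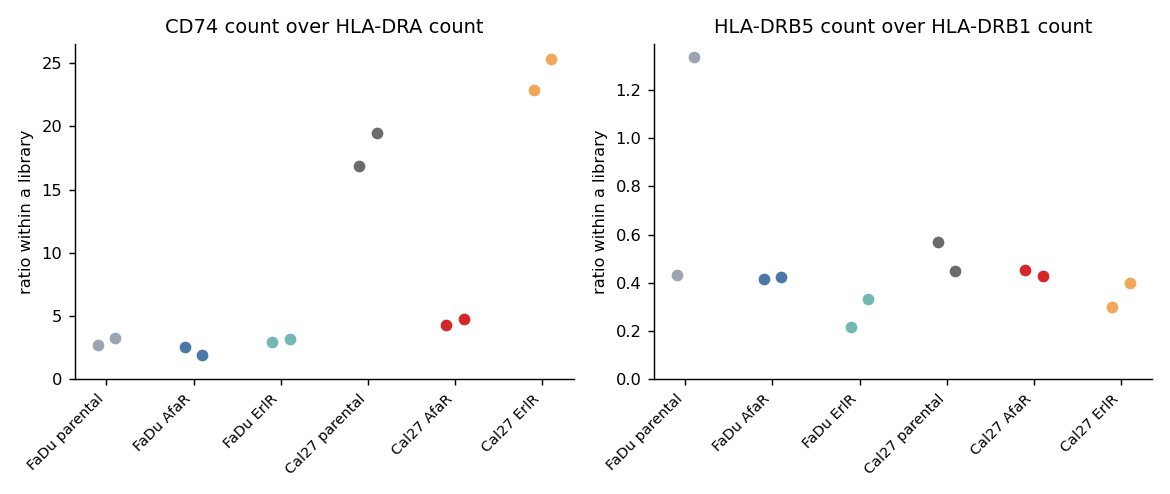
Ratio of counts within each of the 12 libraries, by group, for CD74 over HLA-DRA (left) and HLA-DRB5 over HLA-DRB1 (right). The left ratio is 16.9 and 19.5 in Cal27 parental, 4.33 and 4.80 in Cal27 AfaR and 22.9 and 25.3 in Cal27 ErlR. The FaDu points on the right rest on 3 to 54 counts per gene.

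The region on chromosome 6 also holds other class II genes and genes of other function. Of 7 further class II genes, 3 passed the filter in Cal27. HLA-DMB, the other chain of the peptide exchanger, was at 1.11 and 0.700 CPM in parental, at 12.7 and 6.91 CPM in AfaR and at 0.319 and 0.183 CPM in ErlR, close to its partner HLA-DMA with log2 fold changes of 3.44 and -1.85. HLA-DOA, a chain of the HLA-DM modulator HLA-DO, was at 3.40 and 0.696 CPM in AfaR against 0.117 and 0.233 CPM in parental cells, with 63 and 12 counts in the AfaR libraries. HLA-DRB6, a pseudogene that shares 70 exonic bases with HLA-DRB1 on the same strand, was at 2.05 and 1.74 CPM in AfaR and at 0 and 0.292 CPM in parental cells. HLA-DOA and HLA-DRB6 reached the filter's level of 0.604 CPM in the AfaR libraries alone, and HLA-DQA1 in these and 1 parental library, so the filter kept all 3 for being high in AfaR. HLA-DOB, HLA-DQA2, HLA-DQB2 and HLA-DPB2 stayed below the filter, with at most 15 counts in any Cal27 library. Genes of other function lie between HLA-DQB1 and HLA-DPA1. TAP2, PSMB8, PSMB9 and TAP1, which make and carry peptides for MHC class I, had log2 fold changes of -0.66, -0.14, -0.19 and 0.22 in Cal27 AfaR. BRD2, a chromatin reader next to HLA-DMA that shares 55 exonic bases with it on the opposite strand, had 0.00. In ErlR the same 5 genes had 0.04, -1.12, -1.57, -0.51 and -0.16. In AfaR these 5 genes, set between class II genes, thus lay between -0.66 and 0.22. In ErlR PSMB8 and PSMB9 lay within the range of the 10 genes, from -2.35 to -0.73. PSMB8-AS1, a further gene of that stretch that passed the filter, had 0.68 in AfaR and -0.85 in ErlR, the latter also within that range.

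**Figure D3:**
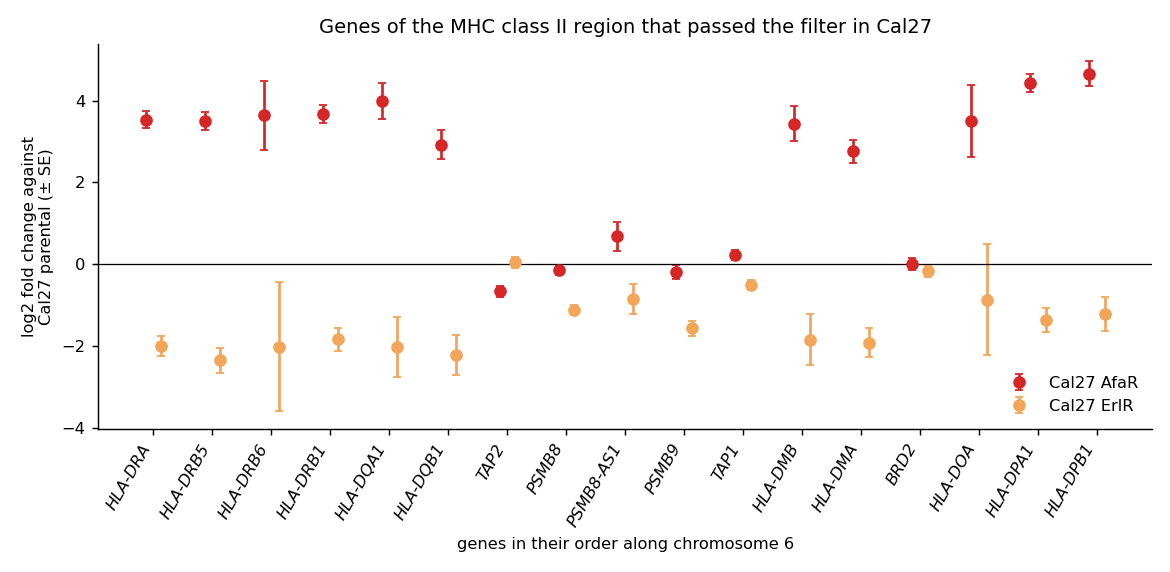
Log2 fold change against Cal27 parental (± SE from edgeR) for the genes of the MHC class II region that passed the filter, in their order along chromosome 6, for Cal27 AfaR and Cal27 ErlR. The HLA genes shown lie between 2.76 and 4.66 in AfaR, with HLA-DOA, HLA-DRB6 and HLA-DQA1 kept by the filter for being high there, whereas TAP2, PSMB8, PSMB8-AS1, PSMB9, TAP1 and BRD2 lie between -0.66 and 0.68.

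FaDu gave the test that the choice of genes did not use, and there the class II genes themselves were at the bottom of the range in all 6 libraries. HLA-DRA was at 2.57 and 1.51 CPM in FaDu parental, at 1.65 and 5.31 CPM in AfaR and at 1.92 and 1.63 CPM in ErlR. CD74 was at 7.04 and 4.94 CPM in parental, at 4.27 and 10.4 CPM in AfaR and at 5.63 and 5.17 CPM in ErlR. For both genes the groups overlapped. HLA-DRB1 ranged from 0.468 to 2.22 CPM over the 6 FaDu libraries with a median of 1.02, HLA-DRB5 from 0.196 to 0.946 (median 0.472) and HLA-DMA from 0.458 to 1.60 (median 0.575). HLA-DPB1 ranged from 0.312 to 1.07 CPM (median 0.386), HLA-DQB1 from 0.0485 to 0.247 (median 0.129) and HLA-DQA1 from 0 to 0.631 (median 0.144). FaDu parental replicate 2 had 0 counts of HLA-DQA1, which allows up to 0.156 CPM in that library. FaDu AfaR replicate 2 was above replicate 1 for all 10 genes, with a summed level of 24.5 against 9.27 CPM, so the FaDu AfaR values of the class II genes depended on the library. Intervals and limits from counts cover counting error only.

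Of the 10 genes, 8 passed the filter in FaDu, and HLA-DPB1 and HLA-DQB1 did not. In FaDu AfaR, 1 of the 8 was called, CIITA, where 6.48% of the 15092 genes tested were called higher and 7.43% in either direction. CIITA was at 0.340 and 0.208 CPM in FaDu parental, at 1.07 and 1.65 CPM in AfaR and at 0.575 and 0.262 CPM in ErlR, from 7, 4, 22, 40, 9 and 4 counts. Both AfaR libraries were above every other FaDu library, and CIITA was the 1 tested member higher in both AfaR libraries than in both parental libraries, an order that 33.8% of all genes tested showed. CIITA rose 4.79-fold in AfaR (log2 fold change 2.26, SE 0.574, edgeR adjusted p = 0.0283). It passed the filter because it was high in AfaR, since 2 AfaR libraries, 1 ErlR library and 0 parental libraries reached the filter's level of 0.493 CPM. For that reason nothing is read from its call. The call was lost with DESeq2 (log2 fold change 2.29, adjusted p = 0.0513) and, in edgeR, without parental replicate 1 (adjusted p = 0.144), without parental replicate 2 (0.157) and without AfaR replicate 2 (0.170), while the log2 fold change stayed between 1.91 and 2.65.

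The class II genes gave no call alongside CIITA in FaDu AfaR. Their log2 fold changes were 0.75 (SE 0.514) for HLA-DRA, 0.53 (SE 0.721) for HLA-DRB1, 0.88 (SE 0.548) for HLA-DMA and 0.27 (SE 0.379) for CD74, with adjusted p-values of 0.326, 0.634, 0.280 and 0.640 in edgeR. HLA-DRB5 had -0.07 and HLA-DQA1 -0.10, with adjusted p-values of 0.954 and 0.963, and scaling to the spike-ins turned them to 0.12 and 0.09, again without a call. HLA-DPA1 stood apart in direction, at 0.971 and 0.832 CPM in parental and at 0.340 and 0.617 CPM in AfaR. HLA-DPA1 was the 1 tested member lower in both AfaR libraries than in both parental libraries, as 31.2% of all genes tested were, but its log2 fold change of -0.91 (SE 0.529) did not pass edgeR's test (adjusted p = 0.251). The median log2 fold change of the 8 genes was 0.40, beside -0.00 for all genes tested. At these counts the standard errors ran from 0.379 to 1.13 on the log2 scale, which limits the class II differences that could be called in FaDu.

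In FaDu ErlR, 0 of the 8 genes were called by edgeR, where 2.05% of all genes tested were called, and 0 had an unadjusted p under 0.05. DESeq2 also called 0. The log2 fold changes ran from -1.29 (SE 1.41) for HLA-DQA1 to 0.58 (SE 0.677) for CIITA, with a median of -0.27 beside -0.00 for all genes. HLA-DRB5, HLA-DPA1 and HLA-DMA were lower in both ErlR libraries than in both parental libraries, 3 of 8, where 25.9% of all genes tested were, and 0 of 8 were higher in both, where 27.7% were. Scaling to the spike-ins moved the median of all genes by 0.48 in FaDu ErlR and turned HLA-DRA, HLA-DMA and CD74 from -0.21, -0.32 and -0.16 to 0.27, 0.15 and 0.32, with 0 calls under either scaling. HLA-DRB5 had the lowest adjusted p of the 8 (0.388 from edgeR), from 0.631 and 0.624 CPM in parental to 0.320 and 0.196 CPM in ErlR. Counted over all groups, the Cal27 ErlR libraries overlapped the range of the 6 FaDu libraries for 8 of the 10 genes. CD74 and HLA-DQB1 were the exceptions, with Cal27 ErlR still above every FaDu library. The share of all genes with such an overlap was not computed, so nothing is read from that count.

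**Figure D4:**
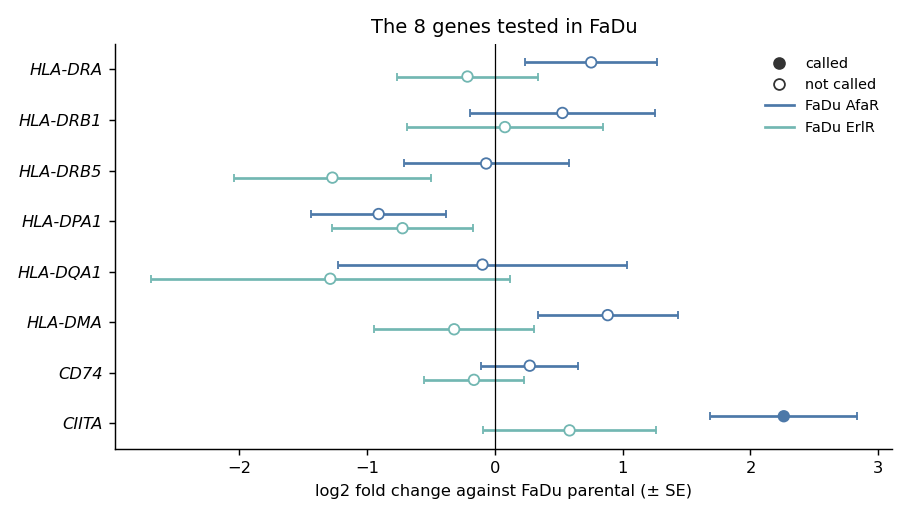
Log2 fold change against FaDu parental (± SE from edgeR) for the 8 genes that passed the filter in FaDu, in FaDu AfaR and FaDu ErlR. The filled point, CIITA in FaDu AfaR at 2.26, is the 1 value called, and the other values lie between -1.29 and 0.88. CIITA passed the filter for being high in AfaR, so nothing is read from that call.

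Class II expression is usual in B cells and myeloid cells, so the libraries were read for markers of those cells and of squamous epithelium. In all 6 groups MS4A1 (CD20) and FCER1A were at 0. The summed level of 4 B cell markers ran from 1.89 to 2.21 CPM in Cal27 AfaR and from 2.68 to 3.15 CPM in Cal27 parental, most of it from PTPRC. That of 7 myeloid and dendritic cell markers ran from 16.3 to 19.8 CPM in Cal27 AfaR and from 13.9 to 18.7 CPM in Cal27 parental. In Cal27 AfaR the B cell sum was thus below that of parental cells, and the myeloid sums overlapped. CD14, the largest part of the myeloid sum, had means of 9.07 CPM in Cal27 AfaR and 9.27 CPM in parental cells. In the same order, CSF1R had 3.99 and 2.94 CPM, ITGAX 3.14 and 2.39 CPM and ITGAM 1.18 and 1.52 CPM. LYZ had 0.685 and 0.146 CPM and CD1C 0 and 0.0292 CPM. Of 6 squamous markers (KRT5, KRT14, KRT17, TP63, EPCAM and CDH1), 5 fell in Cal27 AfaR in edgeR's test, where 8.06% of all genes tested were called lower, and the summed level of the 6 was 764 and 871 CPM against 3487 to 4320 CPM in parental cells. KRT14, a basal keratin, was at 0.918 and 1.63 CPM in Cal27 AfaR against 272 and 112 CPM in parental cells. In Cal27 ErlR, where the class II genes were low, 2 of the 6 were called lower, beside 9.92% of all genes. KRT14 was at 30.7 and 12.2 CPM there (log2 fold change -3.19, adjusted p = 0.00166 from edgeR), and KRT17 fell by 1.13. The sum of the 6 was 3973 to 4136 CPM in ErlR, most of it from KRT5. Their part in the class II levels was not tested. In bulk RNA, more cells with class II RNA and more class II RNA per cell cannot be told apart.

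Outside the region, 5 lists with 54 genes were described: factors of class II promoters, the interferon gamma pathway, class II processing and turnover, ligands and partners of CD74, and surface molecules of the T cell contact. Of all genes tested, 6.48% were called higher and 0.954% lower in FaDu AfaR, 1.54% and 0.504% in FaDu ErlR, 11.5% and 8.06% in Cal27 AfaR, and 3.56% and 9.92% in Cal27 ErlR. Few promoter factors were called. In Cal27 AfaR 1 of 12 was called, higher, and in Cal27 ErlR 0 of 12 (6 at an unadjusted p under 0.05 in edgeR). In FaDu AfaR 1 of 12 was called, higher, and in FaDu ErlR 0 of 12 (1 at an unadjusted p under 0.05). The share of all genes at an unadjusted p under 0.05 was not computed. Nothing is read from those counts, here or in the lists below. The called gene was KAT2B, an acetyltransferase coactivator, both times. It was at 0.350 and 1.81 CPM in Cal27 parental and at 7.40 and 9.58 CPM in AfaR, and it rose by 2.97 on the log2 scale (SE 0.538, adjusted p = 0.00247 from edgeR). In Cal27 ErlR it had 0.69, but 2.31 and a call without Cal27 parental replicate 2 (adjusted p = 0.0189 in edgeR). In FaDu AfaR it was at 7.62 and 13.9 CPM against 3.54 and 3.59 CPM in parental, a log2 fold change of 1.57 (adjusted p = 0.0116 from edgeR). That call was lost without FaDu parental replicate 1 (adjusted p = 0.0896), parental replicate 2 (0.0537) or AfaR replicate 2 (0.0651). RFX5, the large subunit of the RFX complex, was at 32.0 and 27.1 CPM in Cal27 parental, at 57.2 and 50.5 CPM in AfaR and at 18.3 and 26.8 CPM in ErlR. Its order over the Cal27 groups was thus that of the class II genes, with log2 fold changes of 0.87 (adjusted p = 0.00674 from edgeR) and -0.42 (adjusted p = 0.143), both under the fold limit. In FaDu it had 0.66 in AfaR (adjusted p = 0.0171 from edgeR) and -0.58 in ErlR (adjusted p = 0.0604).

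Calls in the interferon gamma pathway were mostly lower values in Cal27 ErlR. Of 17 genes, 1 rose and 1 fell in Cal27 AfaR and 6 fell in Cal27 ErlR, where 19.6% and 13.5% of all genes tested were called. With no fold limit, 7 of the 17 had an adjusted p under 0.05 from edgeR in AfaR and 10 in ErlR. The share of all genes without that limit was not computed, so nothing is read from these counts. CXCL11, an interferon-induced chemokine, rose by 1.5 on the log2 scale in AfaR, from 7.46 and 7.82 to 21.7 and 21.5 CPM. IRF1, an interferon-induced transcription factor, did not follow the class II genes in AfaR, at 91.9 and 76.4 CPM against 102 and 143 CPM in parental cells (log2 fold change -0.54, adjusted p = 0.0903 from edgeR). In Cal27 ErlR it was at 40.4 and 63.6 CPM and was called lower (log2 fold change -1.26, adjusted p = 0.00439 from edgeR). IFNGR1, the ligand-binding receptor chain, was called lower in ErlR as well, at 57.6 and 47.8 CPM against 103 and 128 CPM (log2 fold change -1.16, adjusted p = 0.00749 from edgeR). Both values slipped under the fold limit when a library was left out, IRF1 to -0.99 without Cal27 parental replicate 2 and -0.97 without ErlR replicate 1, IFNGR1 to -0.97 without parental replicate 2 and -1.0 without ErlR replicate 2. JAK2, a kinase of the receptor, had 0.86 in Cal27 ErlR (adjusted p = 0.0187 from edgeR, under the fold limit) and -0.06 in Cal27 AfaR (0.859) and was called in neither.

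GBP1 and GBP2, interferon-induced GTPases, fell in Cal27 ErlR. GBP2 was at 45.2 and 93.0 CPM in Cal27 parental and at 5.05 and 4.64 CPM in ErlR, and it fell by 3.86 on the log2 scale (SE 0.351, adjusted p = 0.000153 from edgeR). GBP1 fell by 2.20, from 122 and 148 CPM to 28.0 and 31.8 CPM. In Cal27 AfaR, where the class II genes were high, GBP1 and GBP2 had 0.48 and 0.75 (adjusted p = 0.0266 and 0.0698 from edgeR) and were not called. GBP1 thus missed the fold limit alone, and GBP2 had 1.36 without Cal27 parental replicate 2. In FaDu AfaR the list gave 1 call of 16 genes tested, GBP1, at 41.9 and 72.2 CPM against 7.14 and 18.5 CPM (log2 fold change 2.14, adjusted p = 0.0132 from edgeR). That call was lost without parental replicate 1 (adjusted p = 0.0748) and without AfaR replicate 2 (0.0795). GBP2, at 5.68 and 10.8 CPM against 1.07 and 3.64 CPM, had 1.8 there (adjusted p = 0.0644 from edgeR). It was called with DESeq2 (adjusted p = 0.0228), with spike-in scaling (0.0268), in the fit of all 12 libraries (0.0388), without a filter (4.85e-07) and without FaDu parental replicate 2 (0.0417), ErlR replicate 1 (0.0453) or ErlR replicate 2 (0.0476). In FaDu ErlR 0 of the 16 were called by edgeR, with 4 at an unadjusted p under 0.05.

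**Figure D5:**
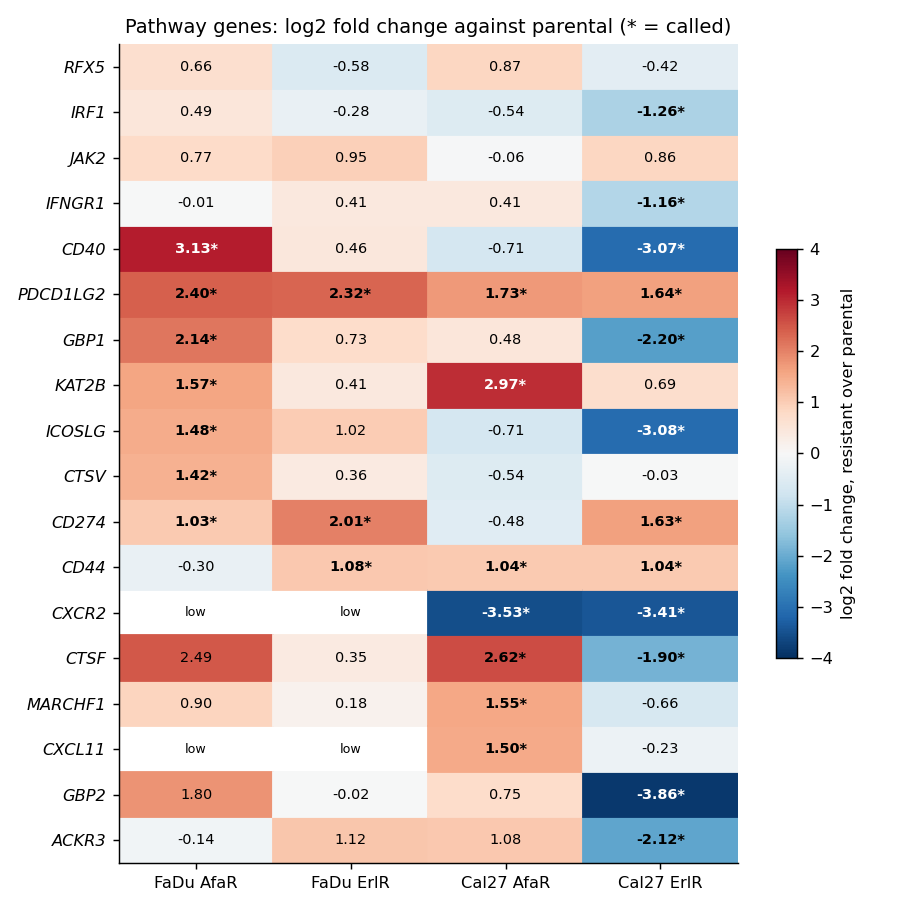
Log2 fold change against parental cells of the same line for 18 pathway genes in the 4 resistant models (colour, from -4 to 4), with an asterisk for called genes and "low" for genes that did not pass the filter. IRF1, IFNGR1, GBP1 and GBP2 are called lower in Cal27 ErlR, from -1.16 to -3.86.

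Among 11 genes of class II processing and turnover, 4 rose and 0 fell in Cal27 AfaR, and 0 rose and 4 fell in Cal27 ErlR, where 11.5% of all genes were called higher in the former and 9.92% lower in the latter. CTSF, cathepsin F, a protease that can cut CD74, was at 2.39 and 5.89 CPM in Cal27 parental, at 32.6 and 18.4 CPM in AfaR and at 0.703 and 1.53 CPM in ErlR. It rose by 2.62 on the log2 scale in AfaR (adjusted p = 0.00164 from edgeR) and had -1.90 in ErlR (adjusted p = 0.0285), a call lost without Cal27 parental replicate 2 (adjusted p = 0.174) and without ErlR replicate 1 (0.139). MARCHF1, a ubiquitin ligase that takes class II from the cell surface, rose by 1.55 in Cal27 AfaR, from 3.79 and 3.68 to 11.1 and 10.7 CPM (adjusted p = 0.00104 from edgeR). In FaDu AfaR 3 of the 11 rose and 0 fell, beside 6.48% and 0.954% of all genes, led by CTSV, cathepsin V, at 40.1 and 37.1 CPM against 11.4 and 17.0 CPM (log2 fold change 1.42, adjusted p = 0.00351 from edgeR). In FaDu ErlR 0 of 11 were called by edgeR, with 4 at an unadjusted p under 0.05.

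CD74 also serves as a receptor for the cytokine MIF, with CD44, CXCR2, CXCR4 and ACKR3 as partners. Of this list of 6, edgeR called 1 higher and 1 lower in Cal27 AfaR, 1 higher and 2 lower in Cal27 ErlR, 0 of 4 tested in FaDu AfaR (0 at an unadjusted p under 0.05) and 1 higher in FaDu ErlR. Of all genes tested, 11.5% were called higher and 8.06% lower in Cal27 AfaR, and 3.56% and 9.92% in Cal27 ErlR. In FaDu AfaR 7.43% were called in either direction, and in FaDu ErlR 1.54% were called higher. CD44 was at 1541 and 1341 CPM in Cal27 parental, at 2764 and 3158 CPM in AfaR and at 4069 and 1979 CPM in ErlR, with a log2 fold change of 1.04 in both models. In FaDu ErlR it had 1.08, at 424 and 774 CPM against 267 and 294 CPM. All 3 calls of CD44 were lost when single libraries were left out. In Cal27 AfaR the log2 fold change was then 0.94 without parental replicate 2, 1.13 without AfaR replicate 1 and 0.96 without AfaR replicate 2. It was 0.97 without parental replicate 2 and 0.44 without ErlR replicate 1 in Cal27 ErlR, and 1.01, 1.15 and 0.59 without parental replicate 1, parental replicate 2 and ErlR replicate 2 in FaDu ErlR. CXCR2 had 36 counts over the 2 Cal27 parental libraries and 3 counts in each resistant model, a ratio of 0.0800 for AfaR (95% exact counting interval 0.0158 to 0.253) and 0.0893 for ErlR (0.0176 to 0.283). CXCR2 passed the filter only through the parental libraries, where it was high, so no call but a lower one was possible. Nothing is read from its calls, which are among those counted as lower for this list and for all lists together. Its calls in both models were lost when parental replicate 2 was left out, with adjusted p-values of 0.0627 and 0.115 in edgeR, and also without AfaR replicate 1 (0.0529), AfaR replicate 2 (0.0652) or ErlR replicate 1 (0.0903). ACKR3, at 2.85 and 5.43 CPM in Cal27 parental and at 0.511 and 1.41 CPM in ErlR, had -2.12 there, a call lost without parental replicate 2 (adjusted p = 0.0788 in edgeR) or ErlR replicate 1 (0.0849).

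Surface molecules that accompany class II in the contact with a T cell made up the last list. Of 8 genes, 7 of them tested, 4 rose in FaDu AfaR, 2 rose in FaDu ErlR, 1 rose in Cal27 AfaR, and 3 rose and 3 fell in Cal27 ErlR. Of all genes tested, 6.48%, 1.54% and 11.5% rose in the first 3 models. In Cal27 ErlR 3.56% rose and 9.92% fell. CD40, the receptor for CD40 ligand, was at 4.90 and 5.10 CPM in FaDu AfaR against 0.194 and 0.936 CPM in parental (log2 fold change 3.13, adjusted p = 0.00840 from edgeR). In Cal27 ErlR it was at 3.51 and 3.73 CPM against 26.9 and 33.2 CPM, and it fell by 3.07 (adjusted p = 5.5e-05 from edgeR). ICOSLG, the ligand of ICOS, likewise was higher in FaDu AfaR (log2 fold change 1.48, adjusted p = 0.0490 from edgeR) and lower in Cal27 ErlR (-3.08, adjusted p = 0.00304). The FaDu call of ICOSLG was lost when any of the 4 libraries compared was left out, with adjusted p-values from 0.0749 to 0.222, and with DESeq2 (0.0881). PDCD1LG2 and CD274 encode PD-L2 and PD-L1, which restrain T cells and so act against the name of the list. Both genes lie close together on chromosome 9. PDCD1LG2 was called higher in each model, with log2 fold changes of 2.40 (AfaR) and 2.32 (ErlR) in FaDu and of 1.73 (AfaR) and 1.64 (ErlR) in Cal27. The FaDu ErlR call of PDCD1LG2 was lost without parental replicate 1, parental replicate 2 or ErlR replicate 2 (adjusted p = 0.0653, 0.0891 and 0.0691 in edgeR), and the Cal27 ErlR call without parental replicate 2 or ErlR replicate 1 (0.0615 and 0.0963). CD274 was called higher in FaDu AfaR (1.03), FaDu ErlR (2.01) and Cal27 ErlR (1.63) and had -0.48 in Cal27 AfaR. Without FaDu parental replicate 1 it gave 0.77 in FaDu AfaR and 1.75 in FaDu ErlR (adjusted p = 0.197 and 0.0539 in edgeR), and without FaDu AfaR replicate 2 it gave 0.92 in FaDu AfaR.

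Over the 5 lists together, 9 of 50 genes tested rose and 0 fell in FaDu AfaR, and 3 rose and 0 fell in FaDu ErlR. In Cal27 AfaR 8 of 52 rose and 2 fell, and in Cal27 ErlR 4 rose and 15 fell. Of all genes tested, 6.48% rose and 0.954% fell in FaDu AfaR, and 1.54% and 0.504% in FaDu ErlR. For Cal27 AfaR the shares were 11.5% and 8.06%, and for Cal27 ErlR 3.56% and 9.92%. The count for Cal27 ErlR was 10 in place of 19 without Cal27 parental replicate 2. That for FaDu AfaR was 4 in place of 9 without FaDu parental replicate 1 and 5 without AfaR replicate 2, and that for FaDu ErlR was 0 in place of 3 without parental replicate 1 and 1 without parental replicate 2 or ErlR replicate 2.

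Outside these lists, the genes most like the class II set were sought by Pearson's r over the 12 libraries between log2(CPM + 0.5) and the mean of that value over the 10 members. The members themselves had r from 0.884 for CD74 to 0.996 for HLA-DRA, each against a mean that contains it. Of 11802 other genes, the closest 5 were MELTF-AS1 (r = 0.989), EYA4 (0.989), PLEKHM1 (0.985), KLF9 (0.984) and HTR1D (0.983). The 12 points fall into 6 groups and the group with the highest levels, Cal27 AfaR, weighs most, so r is given as a description of likeness. EYA4, a transcriptional coactivator and phosphatase, was at 1.81 and 2.98 CPM in Cal27 parental, at 29.3 and 26.4 CPM in AfaR and at 0.192 and 0.244 CPM in ErlR, and at most at 0.192 CPM in FaDu. KLF9, a zinc finger transcription factor, was at 3.73 and 5.37 CPM in Cal27 parental, at 46.8 and 31.9 CPM in AfaR and at 2.17 and 1.96 CPM in ErlR. Both had the Cal27 order of the class II genes. The choice by r over these same libraries favours that order, here and for PLEKHM1, so nothing is read from it. PLEKHM1, an adaptor of late endosomes and lysosomes, kept the order over a narrower range, at 29.6 and 33.2 CPM in Cal27 parental, 58.5 and 54.5 CPM in AfaR and 26.9 and 29.1 CPM in ErlR.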

How the data were processed

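RNA with poly(A) selection and ERCC spike-ins was sequenced from 12 libraries as paired reads of 150 nt. The authors deposited raw counts per Ensembl gene of GRCh38; their processing notes name Trimmomatic 0.36, STAR 2.5.2b and featureCounts of Subread 1.5.2. Tables of normalized counts were not used. Multi-mapping and strand settings of the counting are not given in the sources used here. With reads aligned to 1 reference haplotype, reads of diverged HLA alleles may go uncounted, which was not tested.

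Counts were tested in edgeR 4.0.16 (R 4.3.3; TMM, filterByExpr, quasi-likelihood F-test), each line being fitted with its 6 libraries (3 residual degrees of freedom), on 15092 genes in FaDu and 15269 in Cal27. Spike-ins stayed out of library sizes. The biological coefficient of variation was 14.5% and 15.3%. The lines were compared through interaction terms of a model holding all 12 libraries. DESeq2 1.42.0, 2 other scalings, spike-in scaling, other filters, other sample sets, a replicate block and leaving out each library were the alternatives.

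The members, the lists, written from memory, and the rule for names were chosen with earlier results of these data known. Named were the members, the other class II genes of the region, up to 6 called pathway genes with the largest change per comparison, RFX5, IRF1, JAK2 and IFNGR1, and the 5 genes most like the members. The genes lying between class II genes, the marker genes and CTSF and CD274 in comparisons where they were not among the 6 were named after their values were seen. A pair of genes of the lists is not reported here and enters no count. Deposited counts give the depth, from 16334937 to 23399259 per library.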

Additional observations from a re-analysis of the deposited data

Results flagged for a closer look

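Several genes around the class II set answered differently in the lines, by interaction terms of edgeR over 12 libraries, as the log2 change in FaDu minus that in Cal27. Values are given for genes already named, most of them for a call within a line. SOCS3, CTSB, CTSD and LGMN were called as well in the afatinib models, and CTSB, CTSD, ICAM1 and CD58 in the erlotinib models. The share of all genes with such a call was not computed. For the afatinib models the difference was 1.68 for GBP1 (adjusted p = 0.0360), 1.98 for CTSV (0.000259), -1.32 for CD44 (0.0471), 3.87 for CD40 (0.000255), 2.21 for ICOSLG (0.0230) and 1.53 for CD274 (0.0378). For the erlotinib models it was 1.56 for IFNGR1 (adjusted p = 0.00608), 2.91 for GBP1 (0.00317), 3.83 for GBP2 (0.00745), 3.22 for ACKR3 (0.0140), 3.52 for CD40 (0.00296) and 4.09 for ICOSLG (0.00230). CD40 thus differed between the lines in both models, and GBP2 in the erlotinib models, where the afatinib difference of 1.08 did not pass the test (adjusted p = 0.307). HLA-DPA1 was lower in both FaDu AfaR libraries and higher in both Cal27 AfaR libraries than in parental cells, a difference of -4.69 in log2(mean CPM + 0.5) that was not tested, since the Cal27 change chose the gene.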

How the results depend on the processing

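Of the class II results, the call of CIITA in FaDu AfaR decided the count of members called, 1, which became 0 with DESeq2 and with at least 10 counts in every library (where CIITA was not tested) and ranged from 0 to 1 when single libraries were left out. The count in FaDu ErlR was 0 under every alternative run. The members' median in Cal27 was 3.17 in AfaR and -1.76 in ErlR with at least 10 counts in every library, which leaves fewer members, and ranged from 3.37 to 3.69 and from -2.08 to -1.51 when single libraries were left out. With spike-in scaling, 1479 of all genes tested were called higher and 62 lower in FaDu ErlR, against 233 and 76 in the main fit. The shares of all genes called without a filter and without a fold limit were not computed. Pathway genes called in FaDu ErlR went from 3 to 9 with spike-in scaling, 6 without a filter and 5 without a fold limit. In Cal27 AfaR they went from 10 to 24 without a fold limit. Leaving out single libraries gave 4 to 10 in FaDu AfaR, 0 to 4 in FaDu ErlR, 9 to 12 in Cal27 AfaR and 10 to 20 in Cal27 ErlR. Spike-in scaling moved the median of all genes by 0.18 in FaDu AfaR and 0.48 in FaDu ErlR. Replicate numbers did not pair the libraries, since the correlation of replicate differences between groups ran from -0.24 to 0.14. With a replicate block the counts were 1 and 0 for members and 8, 2, 10 and 19 for pathway genes in FaDu AfaR, FaDu ErlR, Cal27 AfaR and Cal27 ErlR, and the medians 3.51 and -1.88. The cause of these changes was not tested. The planned sum over alternate HLA copies was not run, since the counts list no member more than once. In FaDu HLA-DQA1 had 0 to 13 and HLA-DQB1 1 to 6 counts per library, while CD74 had 79 to 252.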
